A study of Homo sapiens with 19 samples.

Results

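The leukocyte immunoglobulin-like receptor (LILR) genes and LAIR1 form a cluster of immune receptor genes on human chromosome 19. The 9 members described here, LILRB1, LILRB2, LILRB3, LILRB4, LILRA1, LILRA2, LILRA5, LILRA6 and LAIR1, were chosen by name from 20007 protein-coding genes. Their gene records span 454 kb of hg38, from 54216278 to 54670359, an interval that also holds 7 other protein-coding genes in full. The long record of RPS9 overlaps it too. The cells were Molm-13, a human acute myeloid leukaemia (AML) line, given Corin at 0.1 µM or the vehicle DMSO for 24 h. Corin is a compound aimed at CoREST that blocks both LSD1, a histone demethylase, and histone deacetylases. The labels put the same 0.1 µM beside DMSO, and its meaning there is unclear. CUT&RUN, in which an antibody directs a nuclease to cut out marked chromatin, was performed for H3K27ac, H3K4me2 and H3K4me3, and each mark has 2 Corin and 2 DMSO libraries, which makes 12. A further 7 of the 19 libraries (all-trans retinoic acid with Corin, LSD1 and IgG) were not analysed here, and no control antibody stands beside the values. All cells are of 1 line, and the labels do not say whether replicates were separate cultures.

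LILR proteins are carried mainly by monocytes, macrophages, dendritic cells and other leukocytes. The LILRB receptors have cytoplasmic inhibitory motifs that recruit the phosphatases SHP-1 and SHP-2, while the LILRA receptors named here have short tails and signal through the Fc receptor gamma chain. LAIR1 is an inhibitory receptor for collagens encoded in the same cluster. H3K27ac marks active promoters and enhancers, H3K4me2 marks both and is a substrate of LSD1, and H3K4me3 lies mostly at active promoters.

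On chromosome 19 of hg38 (GENCODE release 44), LILRB3 (ENSG00000204577.12) lies at 54216278 to 54223506 on the minus strand. LILRA6 (ENSG00000244482.10) lies at 54236592 to 54242791 on the minus strand, and LILRB2 (ENSG00000131042.15) lies at 54273812 to 54281184 on the minus strand. LILRA5 (ENSG00000187116.14) lies at 54307070 to 54313166 on the minus strand, and LAIR1 (ENSG00000167613.16) lies at 54351384 to 54370558 on the minus strand. LILRA2 (ENSG00000239998.7) lies at 54572920 to 54590287 on the plus strand, and LILRA1 (ENSG00000104974.12) lies at 54593582 to 54602381 on the plus strand. LILRB1 (ENSG00000104972.16) lies at 54617158 to 54638022 on the plus strand, and LILRB4 (ENSG00000186818.13) lies at 54643889 to 54670359 on the plus strand.

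The promoters that the results turn on are shown 5′ to 3′ on the gene's strand, 250 bases before to 50 after the start site, from RefSeq (GRCh38.p14). Of the 9 members 8 were matched in that table, and each of the 8 windows equalled hg38 and lay at the start of the Ensembl canonical transcript. Capitals mark matches, on either strand, to GAGGAA (the core of a PU.1 site), TGTGGT (RUNX), TTGCNNAA (C/EBP), TGANTCA (AP-1) or the repeated GAAA element of IRF factors. LILRB3 and LILRA5 are shown because H3K4me2 peaks lay over this window in the Corin libraries only. LILRB2 had the same pattern in this short window, but within 1 kb of its start it had H3K4me2 in all 4 libraries, and it is not shown. LILRA2 carried H3K27ac and H3K4me2 in all 4 libraries of each mark and no H3K4me3. At LILRB4 and LAIR1 all 3 marks were found.
LILRB3 promoter, chr19:54222958-54223257, minus strand: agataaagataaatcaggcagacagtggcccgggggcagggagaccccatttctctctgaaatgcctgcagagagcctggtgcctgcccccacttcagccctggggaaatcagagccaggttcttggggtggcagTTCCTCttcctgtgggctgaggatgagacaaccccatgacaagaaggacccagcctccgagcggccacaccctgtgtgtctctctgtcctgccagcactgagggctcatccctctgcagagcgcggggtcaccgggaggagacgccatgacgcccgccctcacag
LILRA5 promoter, chr19:54313117-54313416, minus strand: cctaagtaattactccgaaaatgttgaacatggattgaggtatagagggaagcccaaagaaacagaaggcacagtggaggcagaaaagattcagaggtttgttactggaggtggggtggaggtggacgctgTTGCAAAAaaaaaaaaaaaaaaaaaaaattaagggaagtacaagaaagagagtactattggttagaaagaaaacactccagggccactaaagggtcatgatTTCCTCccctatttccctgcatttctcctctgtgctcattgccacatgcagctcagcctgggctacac
LILRA2 promoter, chr19:54573540-54573839, plus strand: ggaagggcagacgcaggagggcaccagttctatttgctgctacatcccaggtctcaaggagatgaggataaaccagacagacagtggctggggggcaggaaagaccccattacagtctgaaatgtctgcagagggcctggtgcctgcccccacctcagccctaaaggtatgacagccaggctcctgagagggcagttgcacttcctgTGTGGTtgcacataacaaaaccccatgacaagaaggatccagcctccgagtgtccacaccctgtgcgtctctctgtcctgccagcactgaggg
LILRB4 promoter, chr19:54662735-54663034, plus strand: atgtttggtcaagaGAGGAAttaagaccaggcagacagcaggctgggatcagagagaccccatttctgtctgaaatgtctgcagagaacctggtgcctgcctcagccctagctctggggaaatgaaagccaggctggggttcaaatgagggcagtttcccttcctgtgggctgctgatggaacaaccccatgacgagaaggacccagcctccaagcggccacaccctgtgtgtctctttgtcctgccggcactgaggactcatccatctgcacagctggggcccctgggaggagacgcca
LAIR1 promoter, chr19:54364882-54365181, minus strand: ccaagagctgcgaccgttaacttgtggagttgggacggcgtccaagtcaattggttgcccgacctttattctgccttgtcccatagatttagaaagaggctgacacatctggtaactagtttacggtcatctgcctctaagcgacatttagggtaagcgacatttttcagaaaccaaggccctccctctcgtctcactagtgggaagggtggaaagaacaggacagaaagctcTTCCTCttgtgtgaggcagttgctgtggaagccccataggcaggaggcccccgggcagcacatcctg

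GAGGAA occurred in the promoters of LILRB3, LILRB4, LILRA5 and LAIR1, starting 115, 236, 18 and 17 bases before the start site, and in 27.9% of all 35116 RefSeq promoter windows. TGTGGT occurred in that of LILRA2, 43 bases before the start, and in 13.1% of all windows. TTGCNNAA occurred in that of LILRA5, 119 bases before the start, and in 10.5% of all windows. TGANTCA (7.71% of all windows) and the IRF element (3.57%) matched none of the 8. A match is a run of letters and not evidence of binding. The windows of the 8 members had a median of 50.5% G and C and 4.5 CpG dinucleotides, against 58.7% and 14 over all windows.

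Reads from near-identical copies can be placed at either copy. Of the 50-base stretches within 1 kb of the canonical start, 38.9% at LILRB3 and 40.1% at LILRA6 occurred again on chromosome 19, against 7.02% to 14.4% at the other 7 genes. For 150-base stretches the shares were 2.11% at both genes and 0 at the other 7. Over 10 kb either side of the gene-record start the 50-base shares were 22.3% at LILRB3, 22.6% at LILRA6, 19.6% at LAIR1 and 19.2% at LILRB2, and 5.78% to 14.7% at the other 5. The 150-base shares there were 4.93% or less at all 9. Which copy such reads came from is uncertain.

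Promoter marks divided the genes into distinct states, shown here as the bp under peaks within 1 kb either side of the canonical start. LAIR1 had peaks of all 3 marks, each in every library of that mark. Its H3K27ac measured 985 and 1225 bp with Corin and 774 and 1178 bp with DMSO, which overlap, and its H3K4me3 1402 and 1290 bp against 1229 and 1200 bp, which do not. H3K4me3 was thus wider at this promoter in both Corin libraries, by a small margin, while within 1 kb of the 5′ end of the gene record it overlapped between treatments (390 and 322 bp against 348 and 409 bp).

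LILRB4, an inhibitory receptor of monocytic cells, had H3K4me2 over the whole promoter window in both Corin libraries and in DMSO replicate 2, and over 1909 bp in DMSO replicate 1. Its H3K4me3 was 958 and 653 bp with Corin and 0 and 344 bp with DMSO. H3K27ac was 1155 and 874 bp with Corin and 0 and 624 bp with DMSO. Each library measured 1 mark. Among the separate DMSO libraries numbered 1, a peak was called at the LILRB4 promoter for H3K4me2 and none for H3K27ac or H3K4me3. For each mark both Corin libraries had a peak there.

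LILRA2, an activating receptor that recognises cleaved immunoglobulins, had H3K4me2 over 1982 and 1939 bp with Corin and 1620 and 1745 bp with DMSO. H3K27ac there was 1237 and 1147 bp with Corin and 874 and 1090 bp with DMSO. Both marks were wider in both Corin libraries at this promoter, though within 1 kb of the 5′ end of the gene record, 870 bp away, they overlapped between treatments. No H3K4me3 peak was found in any of the 4 libraries. The H3K4me2 peak of LILRA2 was among the highest-scoring of its lists: only 0.26% and 0.142% of peaks with Corin and 0.942% and 3.01% with DMSO had a higher score, a value given by the authors.

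LILRB1 and LILRB2, inhibitory receptors for HLA class I, and LILRA1, an activating receptor, had H3K4me2 in all 4 libraries and neither H3K27ac nor H3K4me3 in any. LILRB1 measured 1110 and 1051 bp with Corin and 629 and 666 bp with DMSO, without overlap. LILRB2 measured 765 and 989 bp against 424 and 644 bp, also without overlap. LILRA1 measured 756 and 776 bp against 231 and 1028 bp, so the DMSO libraries lay on both sides of the Corin ones. Over the genome 7.04% of 20007 canonical promoters showed this state of H3K4me2 in all 4 libraries with neither other mark. With LILRA2 added, 4 members had H3K4me2 in all 4 libraries and no H3K4me3, as had 8.02% of all promoters.

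LILRB3, an inhibitory receptor, and LILRA5, an activating receptor of monocytes, had H3K4me2 at the promoter in both Corin libraries and in neither DMSO library. LILRB3 measured 635 and 309 bp with Corin and LILRA5 685 and 750 bp. The LILRB3 peaks also lie in an intron of the RPS9 record. Of all promoters 0.46% (92 genes) gained H3K4me2 in this way and 0.05% lost it. No member promoter gained or lost H3K27ac (3.21% and 0.035% of all promoters) or H3K4me3 (0.375% and 0.08%) in this way. The H3K4me2 peaks of LILRB3 and LILRA5 scored low: at LILRB3 67.1% and 96.0% of the peaks in the same list scored higher, and at LILRA5 61.1% and 81.3%. With the number of peaks matched between libraries, both promoters kept the mark in Corin replicate 1 alone, so 0 members then counted as gained, against 0.2% of all promoters. Among peaks with a score of at least 100, LILRA5 alone was gained, against 0.605%. LILRA6, whose protein closely resembles LILRB3, had no peak of any mark within 1 kb of its start.

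**Figure D1:**
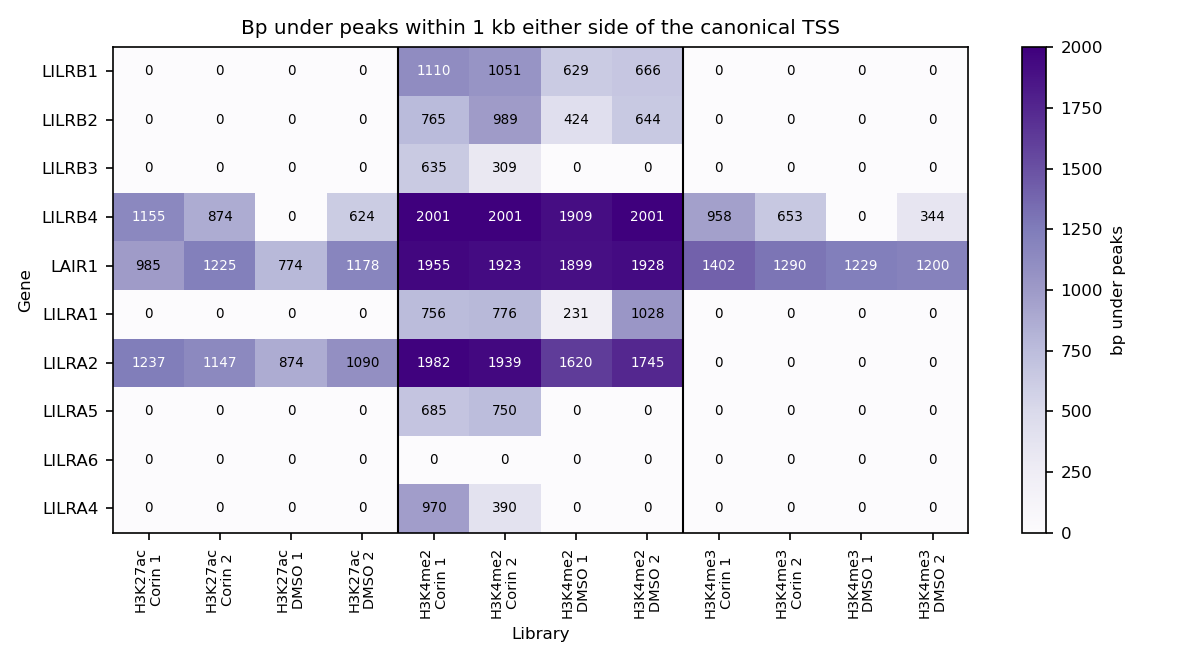
Heat map of the bp under peaks within 1 kb either side of the canonical TSS, with genes as rows (LILRA4, a neighbour and not one of the 9, last) and the 12 libraries as columns; darker cells hold more bp and each cell prints its value. LILRB3, LILRA5 and LILRA4 hold H3K4me2 only in the Corin columns, and H3K4me3 is seen at LAIR1 and LILRB4 alone.

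Coverage was next summed over 10 kb either side of the transcription start site (TSS), taken as the 5′ end of the gene record. The 9 windows merge into 8 stretches of 179 kb, since those of LILRB3 and LILRA6 share 716 bp. A gene was called higher when both Corin libraries lay above both DMSO libraries, and lower in the opposite case. An exact two-sided permutation test of 2 libraries against 2 cannot give a p below 0.333, so no single gene could pass 0.05.

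H3K27ac was found in the windows of LAIR1, LILRA2 and LILRB1. LAIR1 and LILRA2, 2 of the 9, were higher with Corin and 0 were lower, against 28.7% higher and 0.345% lower of all 20007 genes, so the count of members is near the background. With the number of peaks matched between libraries by score, the same pair was higher, against 16.8% of all genes (1.67% lower). LAIR1 had 9374 and 7776 bp with Corin and 6088 and 4066 bp with DMSO, means of 8575 ± 1130 and 5077 ± 1430 bp (SD, n = 2 each). The rise of 3498 bp, or 1.69-fold, had an SD of the difference of 1822 bp, and 115 of all genes had a larger one. The LAIR1 rise was 2287.5 bp at the matched number of peaks, 1684 bp in 5 kb windows, 853 bp over the gene body and 5102.5 bp (3.26-fold) among peaks with a score of at least 100. LILRA2 had 1237 and 1147 bp against 874 and 1106 bp, a rise of 202 bp with an SD of 176 bp. It was 86 bp without DMSO replicate 1 and 318 bp without DMSO replicate 2. LILRB1 had 244 bp in Corin replicate 2 and no H3K27ac in the other 3 libraries.

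H3K4me2 was found in the windows of 8 of the 9 genes. LAIR1, LILRA5, LILRA6, LILRB3, LILRB1 and LILRB2, 6 of the 9, were higher and 0 were lower, against 27.8% and 2.69% of all genes. The median difference over the 9 genes was 357.5 bp, over all genes it was 57 bp, and over the 14075 genes with any H3K4me2 peak it was 233.5 bp. With the number of peaks matched, LAIR1, LILRB1 and LILRB2 were still higher, 3 of the 9, against 21.6% higher and 5.23% lower of all genes. LILRA5, LILRA6 and LILRB3 then had no peak in Corin replicate 2.

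LAIR1 had 14655 and 13625 bp of H3K4me2 with Corin and 11729 and 11619 bp with DMSO, a rise of 2466 bp with an SD of the difference of 732 bp. That rise was 1068.5 bp around the canonical start, 1010.5 bp in 5 kb windows and 546.5 bp over the gene body. LILRA5 had 1161 and 1187 bp with Corin and no H3K4me2 peak in either DMSO library. Besides the promoter, both Corin libraries had a peak 5947 bp upstream, and each had 1 small peak that the other lacked. LILRA6 had 860 and 792 bp with Corin and 468 and 0 bp with DMSO, all in 1 region 4854 bp from its start and over an exon of the long RPS9 record. That region also lies in the window of the neighbour LILRB5. The LILRA6 difference of 592 bp was 358 bp without DMSO replicate 2, 196 bp at the matched number, 130 bp in 5 kb windows and 0 over the gene body, and that of LILRA5, 1174 bp, was 479.5 bp at the matched number and 694 bp over the gene body. LILRB3 had 635 and 309 bp with Corin and none with DMSO, the promoter peaks given above, so its difference was 472 bp and, without Corin replicate 1, 309 bp. The inhibitory receptors for HLA class I had H3K4me2 in every library. LILRB2 had 765 and 1003 bp against 424 and 644 bp, a rise of 350 bp with an SD of 229 bp, or 231 bp without Corin replicate 2. LILRB1 had 2009 and 1675 bp against 1647 and 1322 bp, a rise of 357.5 bp with an SD of 330 bp. It was 190.5 bp without Corin replicate 1 and 195 bp without DMSO replicate 2. LILRA1 (894 and 917 bp with Corin, 231 and 1156 bp with DMSO) and LILRA2 (2367 and 2063 bp, 1755 and 2099 bp) overlapped between treatments.

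H3K4me3 was found in the window of LAIR1 alone, with 5684 and 5417 bp with Corin and 4902 and 3785 bp with DMSO. The groups did not overlap, and the rise of 1207 bp had an SD of the difference of 812 bp. This 1 of 9 compares with 14.4% higher and 4.63% lower over all genes. A larger rise was seen at 53 genes. Without DMSO replicate 2, the lowest library, the LAIR1 difference was 648.5 bp. It was 572 bp in 5 kb windows and 732.5 bp over the gene body. LAIR1 was again the 1 member higher at the matched number (13.5% higher and 5.07% lower of all genes).

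At LILRB4 the values turned on the choice of start site. Its gene record begins 19096 bp before the canonical start, and the window around the record's 5′ end held no peak of any mark. Around the canonical start, at 54662985, H3K27ac covered 1653 and 1420 bp with Corin and 444 and 624 bp with DMSO. That rise of 1002.5 bp, or 2.88-fold, had an SD of 208 bp, and 2139 genes had a larger one. H3K4me2 covered 4661 and 4343 bp against 3424 and 3426 bp, a rise of 1077 bp with an SD of 225 bp that 1256 genes exceeded. H3K4me3 covered 958 and 653 bp against 0 and 344 bp, a rise of 633.5 bp with an SD of 325 bp that 302 genes exceeded. For each of the 3 marks both Corin libraries thus lay above both DMSO libraries at LILRB4. Each of the 3 differences was the same at the matched number of peaks. The H3K4me3 peaks scored low. Of the Corin lists 79.1% and 75.3% of peaks scored above the highest one at this promoter, and 95.5% in DMSO replicate 2. The H3K27ac peak of DMSO replicate 1 had a score of 53.

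With canonical starts for every gene, 3 members were higher in H3K27ac (29.1% of all genes higher, 0.315% lower), 7 in H3K4me2 (28.2% and 2.78%) and 2 in H3K4me3 (14.7% and 4.77%), and 0 were lower in any mark. Canonical starts together with the matched number of peaks left 3 higher in H3K27ac (17% of all genes higher, 1.68% lower), 4 in H3K4me2 (21.8% and 5.4%; LILRB1, LILRB2, LILRB4 and LAIR1) and 2 in H3K4me3 (13.8% and 5.22%). With same-numbered libraries compared as pairs around the gene-record starts, 2, 6 and 1 members were higher in both pairs, against 34.7%, 35.1% and 20.8% of all genes higher and 0.82%, 5.15% and 8.64% lower. LILRB1 also changed with the start: its canonical window held only the promoter H3K4me2 peaks given above, a rise of 433 bp with an SD of 49.2 bp. The canonical start of LAIR1 lies 5627 bp inside the record, and the H3K27ac rise there was 1487 bp, a value that 1113 genes exceeded. That rise was 565 bp at the matched number.

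**Figure D2:**
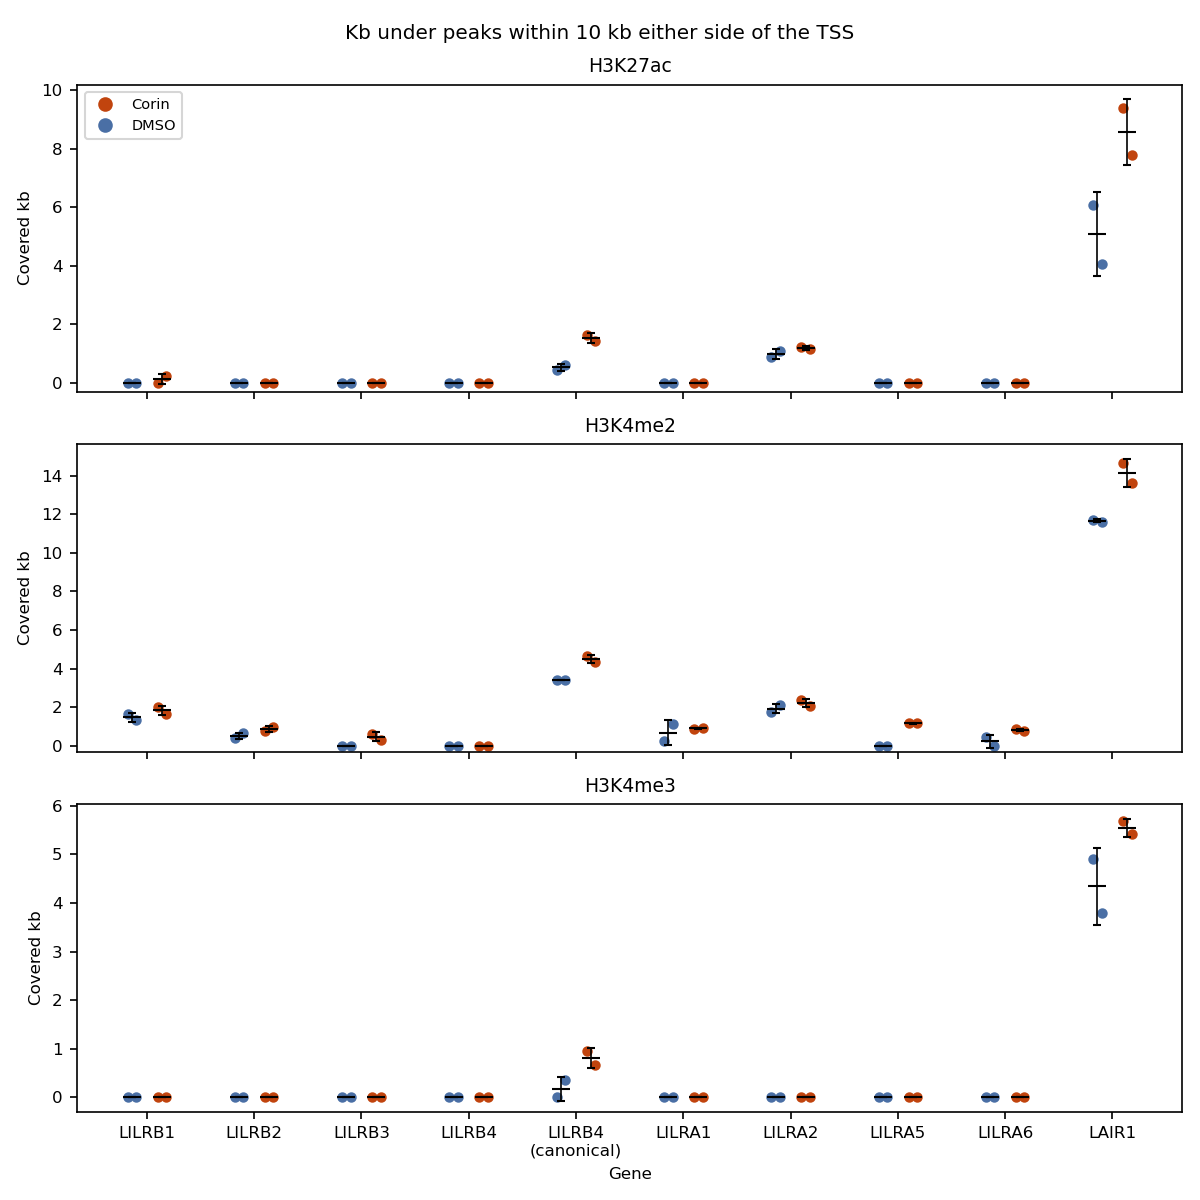
Kb under peaks within 10 kb either side of the TSS for each gene (x axis), in 1 panel per mark; points are libraries, bars the mean and SD of 2 libraries, red Corin and blue DMSO. LILRB4 is drawn for both of its starts. LAIR1 holds most of the covered length, from 4066 to 9374 bp of H3K27ac, and at LILRA5 H3K4me2 is seen in the Corin libraries only.

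LAIR1 accounted for 78.6% to 88.3% of the H3K27ac bp in the merged member windows of a library, 62.8% to 72.2% of the H3K4me2 bp and all of the H3K4me3 bp. Within the gene, H3K27ac over the canonical promoter (54364294 to 54365252) and at 3 more intronic or exonic regions was present in all 4 libraries. Upstream of the gene record lay a dense stretch of peaks around a long non-coding RNA gene, ENSG00000288742. There 1 H3K27ac region of 2412 bp (54374828 to 54377239) was covered over 2409 and 1532 bp with Corin and 1085 and 0 bp with DMSO. A second region of the same width (54377777 to 54380188), over a processed pseudogene, was covered over 1988 and 1693 bp against 1392 and 1018 bp.

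H3K4me2 filled much of the same upstream stretch. The region from 54370580 to 54377232 was covered over 6201 and 5950 bp with Corin and 4716 and 5163 bp with DMSO, without overlap between treatments. In Corin replicate 2 it was 1 unbroken peak of 5950 bp, while the other libraries had 3 to 5 separate peaks. A separate H3K4me2 region 16927 bp upstream (54387485 to 54390616) was covered over 3132 and 2734 bp with Corin and 1799 and 1602 bp with DMSO. It carried no H3K27ac or H3K4me3 in any library and lies outside the 10 kb window.

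**Figure D3:**
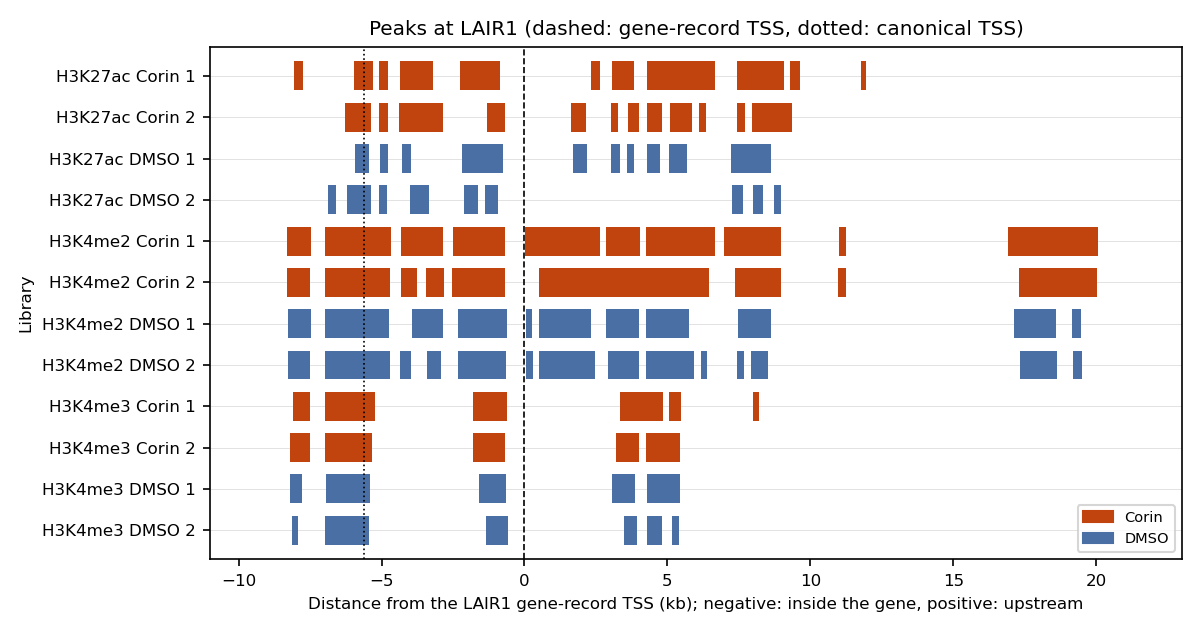
Peaks of the 12 libraries (rows) around LAIR1, with the distance in kb from the 5′ end of its gene record on the x axis (negative inside the gene); each bar is 1 peak, red Corin and blue DMSO. H3K4me2 peaks upstream of the gene cover more in the Corin rows, and the H3K4me2 region near 17 kb has no counterpart in the other marks.

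Over the merged windows H3K27ac covered 9889 ± 1021 bp with Corin and 6067 ± 1266 bp with DMSO (SD, n = 2 each), a difference of 3822 bp with an SD of 1626 bp that was 2489.5 bp at the matched number. H3K4me2 covered 22458.5 ± 1255 and 16547 ± 414 bp, a difference of 5911.5 bp with an SD of 1322 bp. H3K4me3 covered 5550.5 ± 189 and 4343.5 ± 790 bp, a difference of 1207 bp with an SD of 812 bp. All of it lay at LAIR1, and without DMSO replicate 2 it was 648.5 bp. Each difference exceeded its SD and the groups did not overlap.

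Across the whole span the values were 16340 and 14767 bp of H3K27ac with Corin and 10322 and 8929 bp with DMSO, a 1.62-fold difference. For H3K4me2 they were 45938 and 44371 bp against 28987 and 31842 bp, or 1.48-fold, and for H3K4me3 11909 and 11545 bp against 9788 and 9534 bp, or 1.21-fold. As a share of all covered bp of its list, the span held 0.0970% and 0.105% of H3K4me2 with Corin and 0.0867% and 0.0871% with DMSO. The H3K27ac shares were 0.0626% and 0.0734% against 0.0932% and 0.0711%, and overlapped. The H3K4me3 shares were 0.0761% and 0.0760% against 0.0688% and 0.0637%. The H3K27ac lists held 34424 and 30029 peaks with Corin and 17599 and 19995 with DMSO over the whole genome. The part that list length plays in the cluster's longer H3K27ac coverage was not tested beyond the matched number, at which the span difference was 4251 bp.

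To see where peaks appeared, the 4 lists of each mark were merged into union regions, and a region held by each Corin library and by no DMSO library was counted as gained. Of the 35 H3K4me2 regions in the span 10 were gained and 0 were lost, against 9.64% gained and 0.158% lost of 42429 regions in the genome, and 16 were present in all 4 libraries. At the matched number 5 of 31 were gained and 0 lost, against 3.91% and 1.7%. When 50% of a region had to be covered, 6 of 35 were gained, against 13.7%. Of the 20 H3K27ac regions 0 were gained and 0 lost (11.5% and 0.18% in the genome, 4.49% and 1.59% at the matched number), and of the 8 H3K4me3 regions 0 were gained and 0 lost (1.49% and 0.289%, or 0.804% and 0.882% at the matched number). Matching left both counts at 0 in the span. Gains in H3K27ac and H3K4me3 numbered 2 and 2 among peaks with a score of at least 100 (14.7% and 1.42% in the genome). They numbered 3 and 1 with 50% of a region covered (15.1% and 2.18%). Leaving out 1 library gave 1 to 5 and 0 to 1, against 16.4% to 42.6% and 2.31% to 5.73% in the genome. None of the 10 gained H3K4me2 regions had an H3K27ac or H3K4me3 peak in any library.

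The widest gained H3K4me2 region, 1548 bp from 54335153 to 54336700, lay in an intron of LILRA4, a receptor of plasmacytoid dendritic cells. It was covered over 1548 and 915 bp with Corin. The next, 980 bp from 54339093 to 54340072, lay over the LILRA4 start and was covered over 970 and 390 bp. The third, 900 bp from 54482486 to 54483385, was intergenic, 9190 bp from the nearest coding start, that of CDC42EP5, and was covered over 900 and 300 bp. These 3 kept both Corin libraries at the matched number of peaks.

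The gained regions at the LILRA5 promoter (54312464 to 54313213) and the LILRB3 promoter (54222658 to 54223350) were described above. Another (54319113 to 54319424) lay 5947 bp from the LILRA5 start, and 1 more (54302279 to 54302876) 8787 bp from the nearest start of a LILRA5 transcript. This pair was chosen for mention after its values were seen. The region at 54302279 lies beyond the 3′ end of the LILRA5 record. From that record to the LILRA4 start, 4 of the 10 gained regions were found. With all libraries the lost count was 0 in every mark, so no lost region is named. Without DMSO replicate 1, 1 of 20 H3K27ac regions was lost, against 3.62% in the genome. Without Corin replicate 1, 1 of 38 H3K4me2 regions was lost, against 1.06%.

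**Figure D4:**
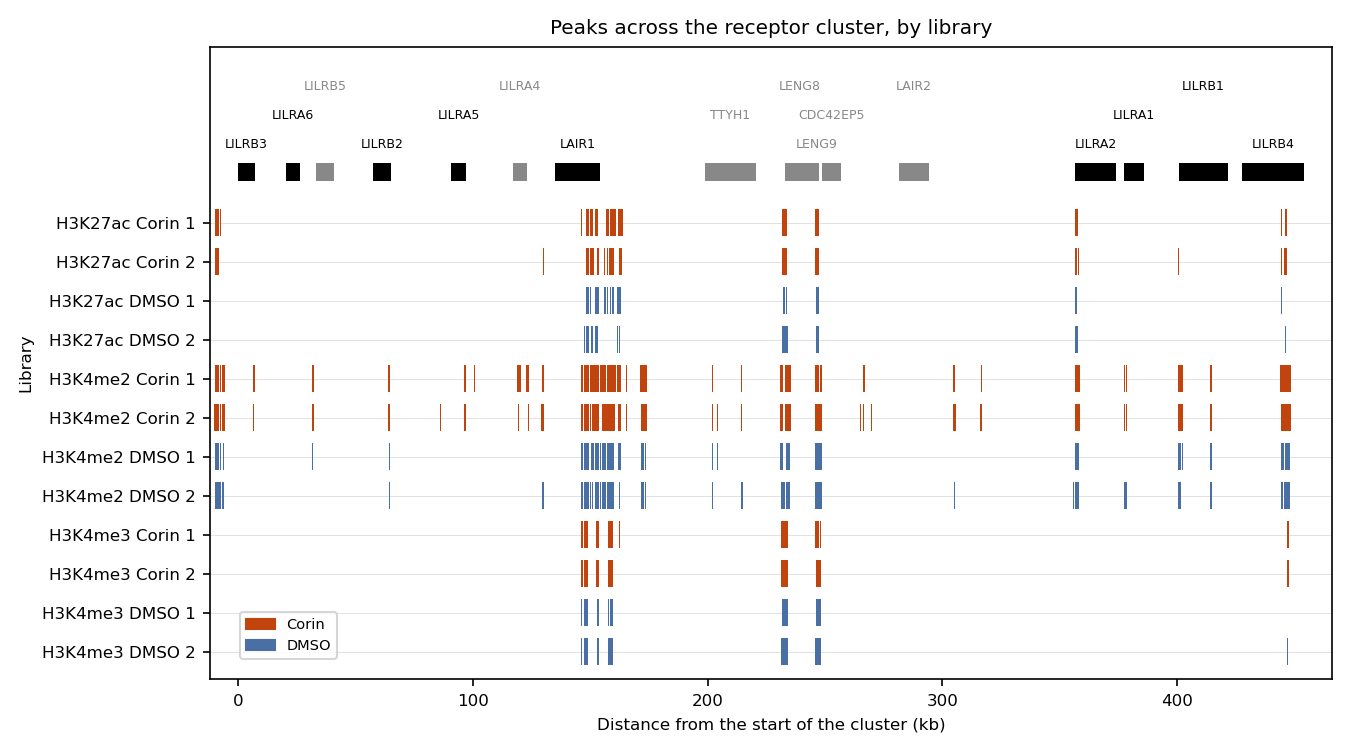
Peaks of the 12 libraries (rows) along the cluster, with the distance in kb from its first base on the x axis; bars at the top are genes, black for the 9 members and grey for the 7 others, and each coloured bar is 1 peak, red Corin and blue DMSO. H3K4me2 bars that begin between 86 and 122.8 kb, from just beyond the 3′ end of LILRA5 to the LILRA4 start, appear in the Corin rows alone.

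Other genes of the complex and of the receptors' pathway were counted in the same windows. Of 16 further receptors of the complex 15 were annotated as protein-coding, and the pseudogene KIR3DX1 was left out. Among the 15, 2 were higher in H3K27ac and 3 in H3K4me2, against 28.7% and 27.8% of all genes. In neither mark were any lower (0.345% and 2.69% of all genes). LILRA4 rose by 2520.5 bp in H3K4me2 (3292 and 2446 bp with Corin, 0 and 697 bp with DMSO, SD of the difference 775 bp). OSCAR, an activating receptor of osteoclasts, had 1512 and 1392 bp of H3K27ac with Corin and 420 and 479 bp with DMSO, a rise of 1002.5 bp with an SD of 94.6 bp that was 340 bp, with overlapping treatments, at the matched number. Its H3K4me2 difference of 714.5 bp was smaller than its SD of 721 bp. At the matched number 0 of the 15 were higher in H3K27ac and 2 in H3K4me2, against 16.8% and 21.6% of all genes.

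Among 6 signalling partners all were higher in H3K27ac, and 4 were at the matched number, at which PTPN11 went from a difference of 353 to -302 bp and SYK from 2026.5 to -93.5 bp, neither with separated treatments. CSK, a kinase that restrains Src kinases, rose by 5044.5 bp (13346 and 11315 bp with Corin, 6748 and 7824 bp with DMSO). PTPN6, which encodes SHP-1, rose by 4079 bp (7967 and 7222 bp against 3134 and 3897 bp), or by 1700 bp at the matched number. In H3K4me2 3 of the 6 were higher (1 at the matched number) and 1 lower, INPP5D, which encodes the phosphatase SHIP-1 and fell by 200 bp (5269 and 5316 bp against 5595 and 5390 bp). Of 9 ligand genes only B2M and APOE had any H3K27ac peak, and neither was higher or lower, while 5 were higher in H3K4me2, with ANGPTL2, which encodes a ligand of LILRB2, rising by 1073 bp and S100A9 by 953.5 bp. At the matched number 3 of the 9 were higher in H3K4me2, S100A9 not among them, and 1 was lower in each of these marks. PTPN11, SYK, B2M and APOE are named here after their values were seen. Over all genes 28.7% were higher in H3K27ac and 27.8% in H3K4me2, and 0.345% and 2.69% lower. At the matched number the shares were 16.8% and 21.6% higher and 1.67% and 5.23% lower.

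The genes whose 12 library values most resembled those of LAIR1, by Euclidean distance over the 10 kb windows outside the cluster, were DOCK8 (3925 bp), ZBTB33 (4412 bp) and ZFP36 (5217 bp). DOCK8 had 9199 and 7095 bp of H3K27ac with Corin and 4761 and 5115 bp with DMSO, close to the LAIR1 values, but less H3K4me3 (3483, 3507, 3448 and 3694 bp). The distance mixes the level of each mark with its change.

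As a check of the labelled line, H3K4me3 within 1 kb of the canonical start was sought at marker genes. It was present in all 4 libraries at 5 of 10 myeloid markers (SPI1, CEBPA, CEBPB, CD33 and LYZ) and absent in all 4 at 3 (MPO, ITGAM and FCGR1A). It was absent in all 4 at the B cell genes PAX5 and CD79A, both of which had H3K4me2 in all 4 and of which CD79A had H3K27ac in 3, and at the erythroid genes HBB and KLF1. The T cell list had it at CD4 alone, a gene that monocytic cells also express, and the NK cell list at NKG7 in 3 libraries.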

How the data were processed

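Peak lists of 12 CUT&RUN libraries were used. Per the submitters' processing notes the tools were Trim Galore, Bowtie2, Picard and MACS2 and the build GRCh38 (hg38), with no version, control or threshold given. The score that the authors deposited with each peak is a whole number of at least 50 with no stated definition, and was used here for ranking and filtering inside each list alone. No peak of 292523 ended past an hg38 chromosome end. The read depth of each library is not known from the lists, so no interval that needs it was computed.

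Bp under merged peaks were computed in Python 3.11.15 with numpy 2.4.6 around the starts of 20007 protein-coding genes (GENCODE release 44), and the calculation was tested on simulated data. Libraries of a mark were compared between Corin and DMSO only. Alternatives were a matched number of top-scoring peaks (17599 for H3K27ac, 30896 for H3K4me2 and 11104 for H3K4me3), a score of at least 100, 5 kb windows, canonical starts, gene bodies, regions at least 50% covered, and leaving out each library. Members, lists and tests were chosen with earlier results of these data known. All 9 members are named; of other lists up to 2 rises and 2 falls in H3K27ac and in H3K4me2 among separated genes, the 3 widest gained regions, and the 3 genes most like LAIR1. Same-numbered Corin and DMSO libraries deviated together over all genes (correlations 0.215, 0.230 and 0.203). A further alternative therefore compared them as pairs, though no label says what same-numbered libraries have in common. The main calls and every SD of a difference treat the libraries as unpaired. Some marker genes and sequences are not reported here.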

Additional observations from a re-analysis of the deposited data

How the results depend on the processing

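In each mark the differences in covered bp over the member windows and over the span kept their sign in every alternative run. Of 126 recomputed values of single genes 112 moved by less than the spread between libraries and 14 by more. LILRA1 H3K4me2, whose treatments overlapped, went from 212 bp to -250.5 bp without DMSO replicate 1, and no other of these values changed sign. The matched number of peaks moved the difference to 4331 bp for H3K4me2 in the windows, and across the span to 4251 bp for H3K27ac and 12057.5 bp for H3K4me2. It moved the H3K4me2 members called higher to 3, the gained H3K4me2 regions to 5 and the promoters that gained H3K4me2 to 0. Windows of 5 kb gave 2008 bp for H3K27ac, 3638.5 bp for H3K4me2 and 572 bp for H3K4me3, as narrower windows hold less. A score of at least 100 gave 2683.5 bp for H3K4me3 across the span, 2 gained regions each for H3K27ac (14.7% in the genome) and H3K4me3 (1.42%), and 1 promoter that gained H3K4me2, LILRA5. Canonical starts gave 2 members higher in H3K4me3, with or without matching. Requiring 50% of a region to be covered gave 3 gained H3K27ac, 6 gained H3K4me2 and 1 gained H3K4me3 regions (15.1%, 13.7% and 2.18% in the genome). Leaving out 1 library loosens the definition of a gain: gained H3K27ac regions then ran from 1 to 5, with 5 without either Corin library, 3 without DMSO replicate 1 and 1 without DMSO replicate 2, and gained H3K4me3 regions from 0 to 1. The genome shares rose too, to between 16.4% and 42.6% for H3K27ac and between 2.31% and 5.73% for H3K4me3. Under the replicate block, in which a Corin library was set against the DMSO library of its number, 2, 6 and 1 members were higher in H3K27ac, H3K4me2 and H3K4me3, so it changed no count of members. Alternatives at the promoters, for LILRB4 at its canonical start, and of canonical starts with matching were chosen after seeing the data. With 2 libraries per group and unknown depth, a missing peak shows only that none was called in that list.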

Other observations

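Away from the receptor genes, H3K4me2 also appeared with Corin in the gap between LAIR1 and LILRA2, in regions chosen for mention after their values were seen. A region over the pseudogene KIR3DX1 (54532517 to 54533321) was covered over 574 and 805 bp with Corin and had no H3K4me2 peak with DMSO, and both Corin libraries kept it at the matched number of peaks. A narrower one (54485945 to 54486481) was covered over 201 and 536 bp with Corin and was held by 0 libraries at the matched number. A region 10958 bp upstream of LAIR1 (54381516 to 54381816) was covered over 237 and 301 bp with Corin, and 1 library kept it.

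Among the 7 other protein-coding genes of the span, LENG9 had 1795 and 1973 bp of H3K27ac with Corin and 1177 and 917 bp with DMSO within 10 kb, a rise of 837 bp with an SD of 223 bp that was the same at the matched number. The 1 lower call among the 16 genes of the span in any mark was H3K4me3 in the 10 kb window of CDC42EP5, at 1230 and 1426 bp with Corin and 1445 and 1445 bp with DMSO. CDC42EP5 had no peak of any mark within 1 kb of its own start, and these bp belong to the peak over LENG9, whose H3K4me3 was not called lower.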
